A study of Mus musculus with 2 samples.

Results

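The 1360 cells described here are T cells, 479 from lymph node and 881 from spleen, that carried transcripts of several genes led by Gsta4, Gsto1 and Igf2r. They were chosen among 11363 cells kept from 2 single-cell libraries. Barcodes with fewer than 500 genes or more than 10% mitochondrial counts had been left out, 259 in lymph node and 297 in spleen. A cell was a member when it held at least 1 unique molecular identifier (UMI, which stands for 1 captured transcript) for 3 or more of 9 genes, namely Gsta4, Gsto1, Igf2r, Arhgap20, Itih5, Ecm1, Chchd10, Lactb and Mfsd4a. It also had to hold fewer than 3 summed UMIs of the B cell genes Cd79a, Cd79b and Ms4a1, and none of Klrg1 and Gzmb, genes of late effector cells. These exclusions took out 32 lymph node and 36 spleen cells that had 3 or more of the 9 genes. The 9 genes were themselves picked from these cells, so every difference between members and the remaining cells is a description and tests nothing.

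Both libraries came from healthy female mice of genotype Mycfl/fl Foxp3Cre/WT, floxed at Myc on both chromosomes and heterozygous for Cre at Foxp3, which lies on the X chromosome. By this design Treg cells with and without Myc live in the same animal, and neither library is from mice without Cre. Cells sorted as CD4+ CD25+, with and without the YFP reporter, were loaded together, 1 droplet lane for lymph node and 1 for spleen. How many animals were used, their age and the YFP state of single cells are stated in no source used here. With 1 library per tissue no test between conditions was possible, cells are not replicates, and every interval below is a 95% exact interval for counting error only.

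Regulatory T (Treg) cells hold immune responses in check and depend on the transcription factor Foxp3. Resting Treg cells recirculate through lymphoid organs with receptors such as Ccr7 and transcription factors such as Klf2, whereas effector Treg cells carry S100 proteins, Icos and Maf. Glutathione transferases, the family of Gsta4 and Gsto1, join glutathione to reactive compounds or use it to reduce them, and Igf2r carries lysosomal enzymes and takes up insulin-like growth factor 2.

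Members held a median of 2077 UMIs and 995 genes in lymph node and 2334 UMIs and 1045 genes in spleen, against 2029 UMIs and 926 genes, and 1896 UMIs and 890 genes, in the rest of the kept cells. Median mitochondrial shares were 2.46% and 2.55% in members, against 2.60% and 2.59% in the rest. Summed over cells, members gave 1492960 UMIs in lymph node and 2767859 in spleen. The libraries shared 53 barcodes, and no shared barcode was a member in both. Spleen members were thus deeper than the spleen rest, and a rule that counts detected genes depends on depth.

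The T cell label was checked against marker genes. T cell markers (Cd3d, Cd3e, Cd3g, Cd4, Trac and Trbc2) summed to 7048 CPM (the UMIs of a gene scaled to a common total of UMIs over all genes) in lymph node members and 7098 CPM in the lymph node rest. In spleen they summed to 7059 CPM in members and 7056 CPM in the rest, so members carried T cell transcripts at the level of the other sorted cells. The 8 Treg markers summed to 2902 CPM in members against 2529 CPM in the rest of lymph node, with 5 of the 8 higher in members, and to 2960 CPM against 2324 CPM in spleen, with 7 of the 8 higher. B cell markers summed to 362 and 361 CPM in members, against 814 and 645 CPM in the rest, and most of the members' sum was Ighm, with 511 of 541 UMIs in lymph node and 926 of 999 in spleen. Myeloid markers summed to 143 CPM in members and 157 CPM in the rest of lymph node, and to 237 CPM in members and 179 CPM in the rest of spleen. Csf1r, S100a8 and S100a9 were at 0 in members of both tissues, and 1 spleen member held 221 of the 636 Cst3 UMIs.

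The genes of the rule fall into 4 kinds by function: the glutathione enzymes Gsta4 and Gsto1, the receptor Igf2r and the membrane transporter Mfsd4a, the mitochondrial proteins Chchd10 and Lactb, and a group of secreted or signalling proteins. That last group holds Itih5 and Ecm1, which are released to the extracellular matrix, and Arhgap20, a GTPase-activating protein. Gsta4 stood at 177 CPM in members and 21.1 CPM in the rest of lymph node, and at 221 CPM in members and 25.7 CPM in the rest of spleen. Gsto1 stood at 182 and 193 CPM in members, against 33.1 and 37.6 CPM in the rest, lymph node before spleen. Igf2r stood at 206 and 210 CPM in members, against 50.5 and 57.0 CPM in the rest. Since these genes chose the cells, the gaps are built in. They show how far apart the 2 groups were set.

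Among the other rule genes, Arhgap20 was the scarcest in the rest, with 52.2 and 53.1 CPM in members against 6.31 and 7.71 CPM in the rest. Chchd10 was the most abundant, with 439 and 482 CPM in members against 173 and 230 CPM in the rest. It was found in 80.8% of lymph node and 83.8% of spleen members, so most members owed 1 of their 3 genes to it. Ecm1 was the rule gene with the widest gap between tissues, at 206 CPM in lymph node members and 314 CPM in spleen members, and 54.8 and 88.6 CPM in the rest. Itih5 (84.4 and 71.5 CPM), Lactb (89.1 and 82.0 CPM) and Mfsd4a (59.6 and 49.9 CPM) completed the set, each below 21 CPM in the rest.

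**Figure D1:**
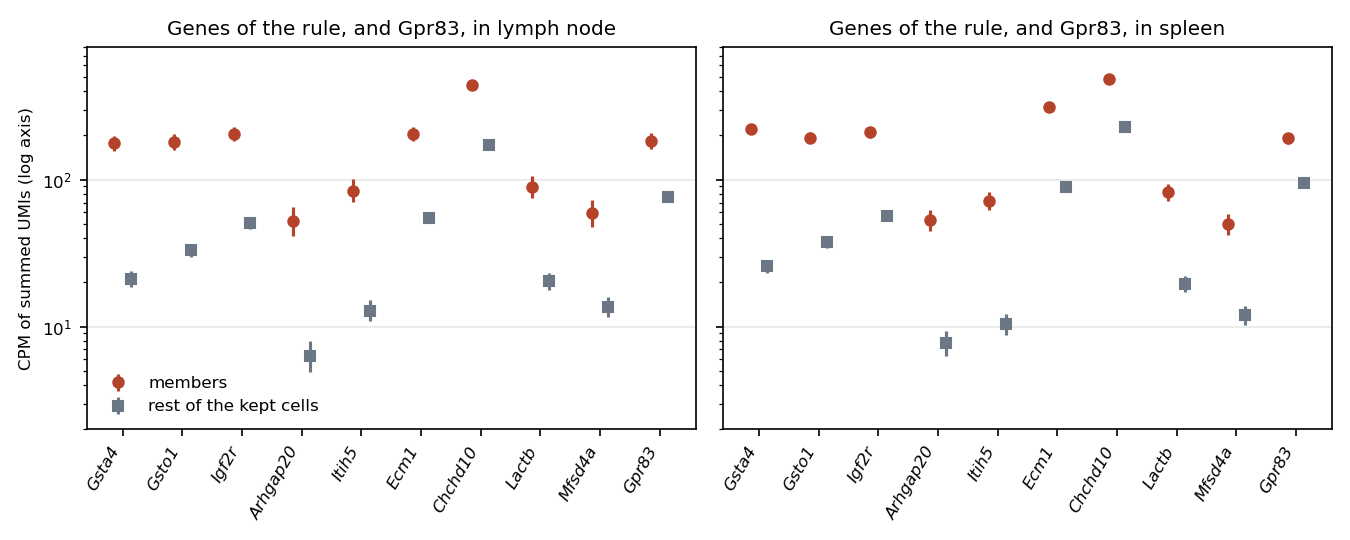
Level of the 9 rule genes and of Gpr83 in members (circles) and in the rest of the kept cells (squares), in CPM of summed UMIs on a log axis, with bars for 95% exact Poisson intervals. Every rule gene lies higher in members by construction. Gpr83, a listed marker of these cells that the rule did not use, lies at 184 and 192 CPM in members against 76.4 and 95.4 CPM in the rest.

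Of the 9 rule genes and Gpr83, Gsta4 (78182774 to 78209349), Arhgap20 (51765337 to 51853856), Lactb (66955388 to 66975484) and Gpr83 (14860210 to 14870789) lie on chromosome 9 of GRCm38, far apart from each other. RefSeq promoters on GRCm38.p6, 250 bases before to 50 bases after the start, were matched for 9 of these 10 genes by symbol, all but Gsta4. They were searched on both strands for an antioxidant response element core (TGACNNNGC), an E-box (CACGTG), which is the site that Myc and its partner Max bind, and an AP-1 site (TGANTCA). None of the 9 held the first, which is found in 12.4% of 32851 promoters. Igf2r and Mfsd4a held the E-box, found in 7.15% of all promoters, and Ecm1 held the AP-1 site, found in 7.81%. The 3 promoters with a match are shown 5′ to 3′ on the gene's strand, here the minus strand for each, with the matched letters in capitals: Igf2r at chr17:12769657-12769956, Mfsd4a at chr1:132068013-132068312 and Ecm1 at chr3:95739520-95739819. A match in letters is no evidence of binding.
Igf2r: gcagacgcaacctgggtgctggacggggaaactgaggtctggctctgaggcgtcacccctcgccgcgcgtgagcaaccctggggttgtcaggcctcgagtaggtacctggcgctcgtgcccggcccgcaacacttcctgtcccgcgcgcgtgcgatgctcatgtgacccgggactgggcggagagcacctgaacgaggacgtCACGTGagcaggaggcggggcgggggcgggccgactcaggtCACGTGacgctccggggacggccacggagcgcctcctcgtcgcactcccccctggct
Mfsd4a: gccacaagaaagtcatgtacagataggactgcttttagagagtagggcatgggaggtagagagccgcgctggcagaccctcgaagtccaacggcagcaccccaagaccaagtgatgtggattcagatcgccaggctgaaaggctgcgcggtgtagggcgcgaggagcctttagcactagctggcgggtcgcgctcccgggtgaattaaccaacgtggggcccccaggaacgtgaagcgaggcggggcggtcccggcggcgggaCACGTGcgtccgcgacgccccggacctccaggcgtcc
Ecm1: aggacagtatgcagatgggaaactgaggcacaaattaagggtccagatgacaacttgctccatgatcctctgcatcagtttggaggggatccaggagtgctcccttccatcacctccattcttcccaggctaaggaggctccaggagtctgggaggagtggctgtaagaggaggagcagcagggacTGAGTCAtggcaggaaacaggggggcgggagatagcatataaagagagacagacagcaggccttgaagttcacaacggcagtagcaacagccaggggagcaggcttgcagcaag

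Members made up 479 of 4820 kept lymph node cells (9.94%, 9.11 to 10.8%) and 881 of 6543 kept spleen cells (13.5%, 12.6 to 14.3%). Most were near the limit of the rule: exactly 3 of the 9 genes were found in 346 lymph node members (72.2%) and 572 spleen members (64.9%), 4 genes in 97 and 215, and at most 8 in any cell. Once each cell was thinned to 1200 UMIs, the rule kept 169 of 4568 lymph node cells (3.70%, 3.17 to 4.29%) and 298 of 6018 spleen cells (4.95%, 4.42 to 5.53%). The spleen share was the higher at either depth. Just inside the limit, cells with exactly 3 rule genes held Gsta4 at 125 CPM in lymph node and 151 CPM in spleen, and cells with exactly 2, just outside, held it at 67.9 and 71.7 CPM.

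Each rule gene was also measured in cells chosen by the other 8 genes. Since the 9 were picked from these cells as a set, the values that follow describe the choice and support nothing. Gsta4 was then 3.49-fold higher in the chosen cells than outside them in lymph node (2.85 to 4.26) and 3.72-fold higher in spleen (3.26 to 4.25). All 9 genes were higher in such cells in both libraries, and the smallest ratio was that of Itih5 in lymph node, 1.36 (0.932 to 1.94), whose interval includes no difference. At 1200 UMIs, 34 of 36 gene pairs in lymph node and 35 of 36 in spleen met in the same cell more often than independent detection gives, with median ratios of 1.55 and 1.47. The interval lay above 1 for 18 pairs in each library. Arhgap20 and Itih5 gave the highest ratio, 3.01 in spleen (10 cells against 3.32 expected), and Itih5 and Lactb the lowest, 0.226 in lymph node (1 cell against 4.42 expected).

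Detection of Gsta4 followed the same order as its levels, and the gap between members and rest is again built in by the rule. At 1200 UMIs a Gsta4 UMI was found in 108 of 465 lymph node members (23.2%, 19.5 to 27.3%), against 2.61% of the rest and 0.909% of the cells with B cell genes. In spleen it was found in 182 of 830 members (21.9%, 19.2 to 24.9%), against 2.83% of the rest and 0.962% of the cells with B cell genes. Before thinning the shares were 34.2% and 38.4% in members, and 4.61% and 4.57% in the rest. The cells with B cell genes had median depths of 3120 and 2338 UMIs, no lower than those of members. Not all rule genes kept this order. Chchd10, Lactb and Mfsd4a were found more often in cells with B cell genes than in the rest in both tissues, and Gsto1 in lymph node. For Chchd10 the shares at 1200 UMIs were 28.2% and 40.4% in cells with B cell genes, against 20.2% and 24.0% in the rest.

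Gpr83, a G protein-coupled receptor typical of Treg cells and listed as a marker of these cells but not part of the rule, was 2.40-fold higher in lymph node members (2.09 to 2.75) and 2.01-fold higher in spleen members (1.82 to 2.23). Cells with more rule genes mostly held more of it. For 0, 1, 2, 3, 4 and 5 or more rule genes it was 60.7, 90.2, 126, 165, 224 and 221 CPM in lymph node, and 72.7, 108, 140, 191, 179 and 224 CPM in spleen. Cells that missed the rule by 1 gene were thus already above those with none. Ikzf2, the Treg transcription factor Helios, stood in spleen at 469, 534, 642, 837, 931 and 1131 CPM over the same steps. S100a4, a calcium-binding protein of effector cells, stood at 245, 171, 69.8, 79.8, 48.4 and 10.3 CPM in spleen. Ly6c1, a surface protein of resting T cells, stood at 221, 166, 116, 92.8, 65.4 and 36.1 CPM there. In lymph node S100a4 stood at 205, 106, 111, 36.4, 18.9 and 75.8 CPM and Ly6c1 at 165, 141, 141, 82.5, 50.5 and 63.2 CPM, so both were higher again at the last step there, which holds 36 cells. Cells with B cell genes, Klrg1 or Gzmb are left out of all these steps. Foxp3 showed no such order, with 105, 91.5, 97.6, 115, 101 and 126 CPM in spleen, and in lymph node it stood at 119, 104, 115, 75.7, 78.9 and 88.5 CPM. Cells with 5 or more rule genes were also the deepest, with medians of 3379.5 UMIs in lymph node and 3935.5 in spleen, against 2009 and 1828 UMIs in cells with none, and the part of depth in these orders was not tested.

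**Figure D2:**
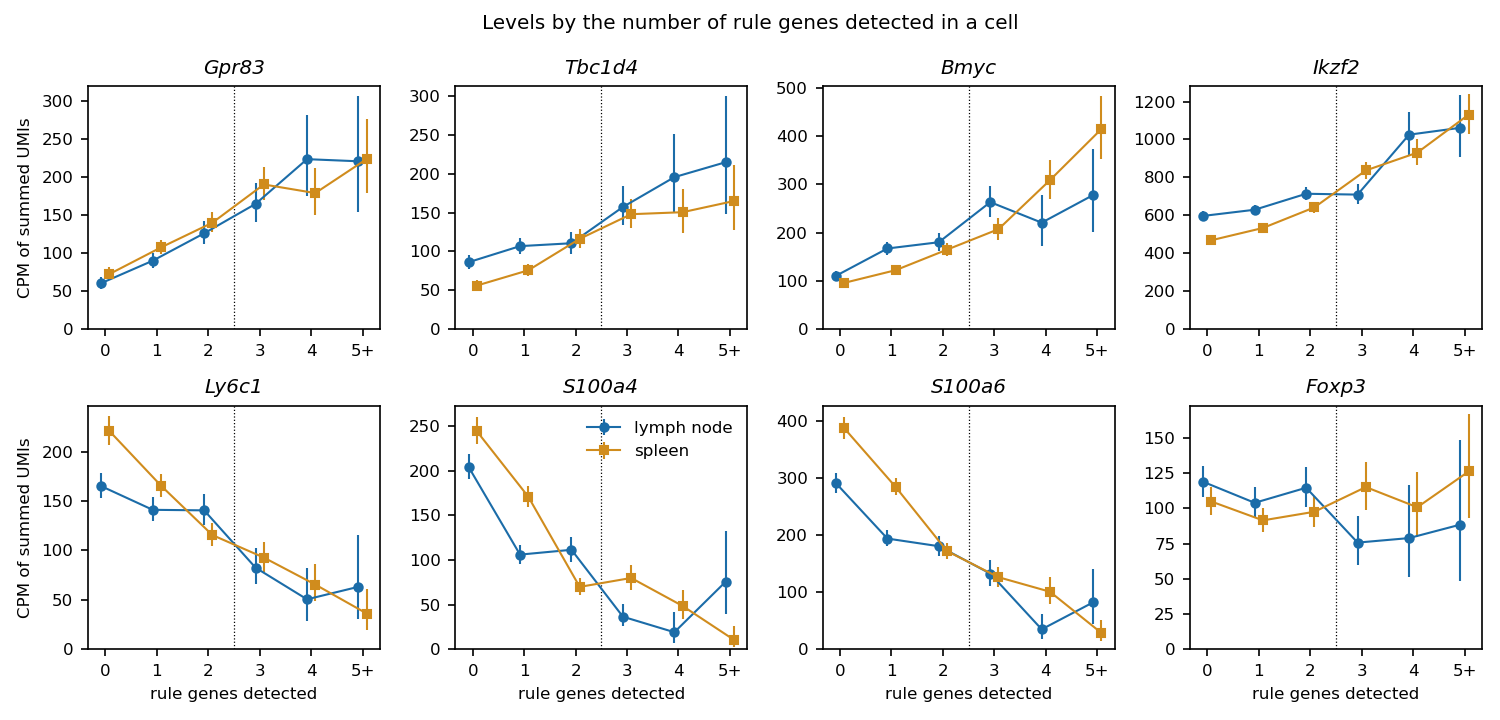
Level in CPM of 8 genes outside the rule (vertical axes) by the number of rule genes detected in a cell (horizontal axes), lymph node as circles and spleen as squares, with bars for 95% exact Poisson intervals; the dotted line marks the limit of the rule. Gpr83, Tbc1d4, Bmyc and Ikzf2 lie higher, and Ly6c1, S100a4 and S100a6 lower, in cells with 5 or more rule genes than in cells with none, with breaks in between such as S100a4 in lymph node (18.9 CPM at 4 genes, 75.8 CPM at 5 or more).

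Among genes outside the rule, those with the clearest excess in members were Gpr83, Tbc1d4, Bmyc, Itm2a and 2310001H17Rik, and those with the clearest deficit were S100a4, S100a6, Ly6a and Maf. Gpr83 is a listed marker of these cells, so its place in this ranking is no independent result. Genes with at least 20 CPM over both groups and 30 UMIs were compared. In lymph node, 91 of 5045 genes (1.8%) were higher in members by 1.5-fold or more and 91 (1.8%) were lower, 3.61% in all. In spleen, 69 of 5063 genes (1.36%) were higher and 56 (1.11%) lower, 2.47% in all. The median gene lay at 0.02 on the log2 scale in both. On each side 12 genes were named by how far the interval of the weaker library lay from 1.

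Tbc1d4, a regulator of glucose transporter traffic, stood at 171 CPM in members and 91.6 CPM in the rest of lymph node (1.87-fold, 1.63 to 2.15), and at 151 and 71.8 CPM in spleen (2.10-fold, 1.87 to 2.36). Bmyc, a short relative of Myc, stood at 256 CPM in members and 145 CPM in the rest of lymph node (1.77-fold), and at 264 and 120 CPM in spleen (2.20-fold). Tnfrsf9, the costimulatory receptor 4-1BB, stood at 216 CPM in members and 130 CPM in the rest of lymph node (1.67-fold), and at 245 and 122 CPM in spleen (2.01-fold). No interval of these genes included 1. Pdcd1, the inhibitory receptor PD-1, was 1.66-fold and 1.98-fold higher, and Nr4a1, a transcription factor induced by antigen receptor signals, was 1.95-fold and 1.53-fold higher. Itm2a, a membrane protein of thymocytes and activated T cells, was 1.76-fold and 1.63-fold higher, and the noncoding gene 2310001H17Rik was 1.65-fold and 1.89-fold higher. The smallest excesses were those of Il2rb, the beta chain of the interleukin-2 receptor (1.39-fold and 1.41-fold), and of the histone H2afz (1.37-fold and 1.44-fold). Ptms and Swap70 lay between, at 1.73-fold and 1.71-fold in lymph node and 1.59-fold and 1.53-fold in spleen.

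On the other side, S100a4 stood at 36.8 CPM in members and 267 CPM in the rest of lymph node (7.23-fold lower, 5.54 to 9.63), and at 61.4 and 308 CPM in spleen (5.01-fold lower, 4.30 to 5.88). S100a6 stood at 106.5 CPM in members and 444 CPM in the rest of lymph node, and at 105 and 530 CPM in spleen. Maf, a transcription factor of effector and interleukin-10-producing T cells, stood at 34.2 CPM in members and 99.9 CPM in the rest of lymph node, and at 29.6 and 71.6 CPM in spleen. All 3 belong to the effector Treg list. Ly6a, the surface antigen Sca-1, was 2.88-fold and 2.51-fold lower, S100a11 2.21-fold and 2.04-fold, and Id2, an inhibitor of E proteins, 1.92-fold in both. Icos, a costimulatory receptor, was 1.74-fold and 1.86-fold lower and Glrx, a glutathione-dependent oxidoreductase, 2.10-fold and 1.66-fold. Ly6c1, whose counts may be shared with its close copy Ly6c2, was 1.81-fold and 2.01-fold lower, and Lgals1 1.504-fold and 1.49-fold. H2-Eb1 and Cd74, genes of antigen presentation, were lower in members too (4.02 against 93.0 CPM and 118 against 670 CPM in lymph node, 35.8 against 70.0 CPM and 422 against 620 CPM in spleen), but the rest includes cells with B cell genes that the rule kept out of the members. Without those cells and those with Klrg1 or Gzmb, 21 of the 24 named genes kept their side in spleen and 24 in lymph node. The others in spleen were H2-Eb1, Cd74 and Lgals1, which stood at 2.49, 1.27 and 0.084 on the log2 scale. Few cells carried such counts: 2 spleen members held 538 of 1168 Cd74 UMIs, and 2 held 236 of 253 UMIs of H2-Ab1, a related gene. Over all settings run, H2-Eb1 in spleen ranged from -5.42 to 2.49. With the same cells left out of the rest, S100a4 stood at -1.99 in lymph node and -1.46 in spleen, S100a6 at -1.11 and -1.46, and Icos at -0.53 and -0.42, all nearer to 0 than against the whole rest.

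**Figure D3:**
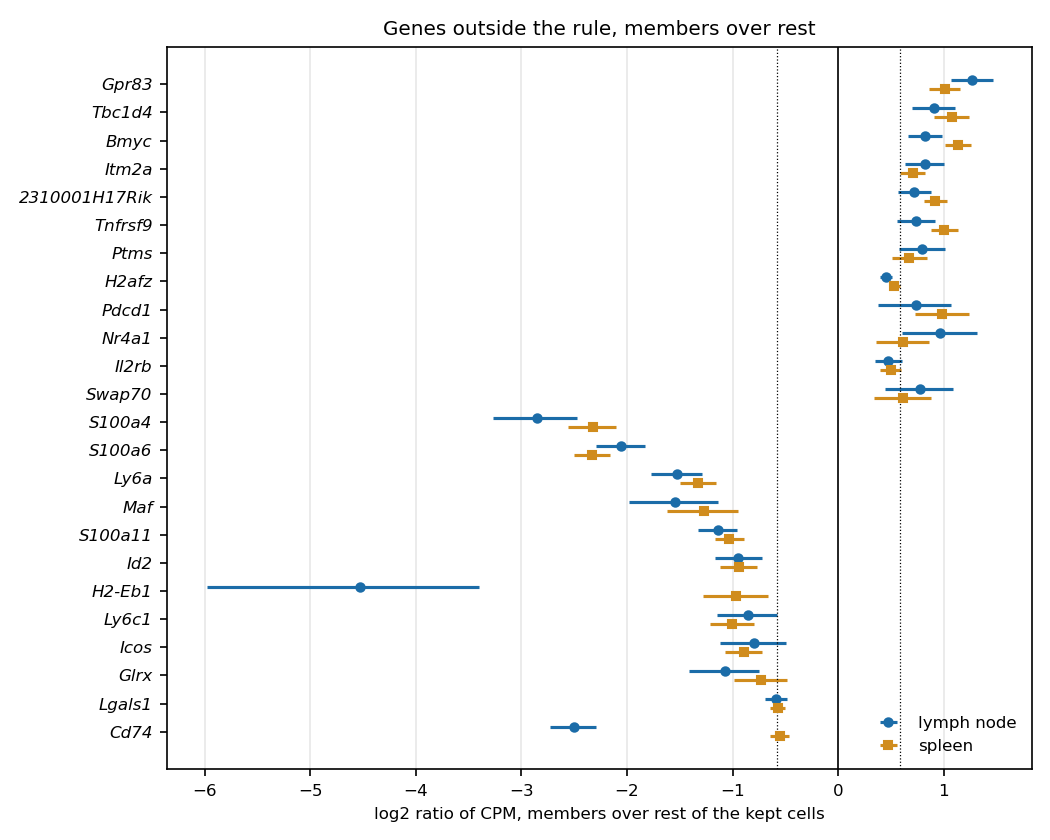
Log2 ratio of CPM, members over the rest of the kept cells, for the 12 genes named on each side, lymph node as circles and spleen as squares, with bars for 95% exact intervals and dotted lines at 1.5-fold. The upper 12 genes lie above 0 and the lower 12 below 0 in both tissues, with H2-Eb1 and Cd74 far lower in lymph node than in spleen.

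The genes that define Treg cells did not all differ in 1 direction. Of the Treg identity list, 11 of 18 genes in lymph node and 16 of 19 in spleen were higher in members, with medians of 0.23 and 0.31 on the log2 scale. Of all genes tested, 54.6% and 54.9% were higher, so the lymph node count lies near the background. In each tissue 4 genes of the list were higher by 1.5-fold, beside 1.8% and 1.36% of all genes, with Itgae and Arl5a lower by that much in spleen. Gpr83, Tnfrsf9 and Swap70 were among the 4 in both tissues, joined by Lrrc32, which tethers latent TGF-beta to the surface, in lymph node (82.4 CPM in members, 50.3 CPM in the rest). Foxp3 itself stood at 77.7 CPM in members and 115 CPM in the rest of lymph node (ratio 0.677, 0.555 to 0.819), and at 113 and 107 CPM in spleen (1.05, 0.926 to 1.19). Ikzf2 was higher in members with 814 and 904 CPM, lymph node before spleen, beside 675 and 604 CPM in the rest. Il2ra, which encodes CD25, differed less, at 164 against 130 CPM and 207 against 180 CPM. Ctla4, an inhibitory receptor, stood at 154 against 174 CPM and 174 against 215 CPM. With the rule at 1200 UMIs Ctla4 stood at 0.061 and 0.010 in log2, and Foxp3 at -0.34 in spleen.

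The effector Treg list was lower in members for 17 of 18 genes in lymph node and 19 of 20 in spleen, with medians of -0.95 and -0.83, and 13 and 11 genes lower by 1.5-fold, beside 1.8% and 1.11% of all genes. The rule itself bars cells with Klrg1 or Gzmb. With such cells and those with B cell genes taken out of the rest too, the medians were -0.74 in lymph node and -0.27 in spleen. Ccr2, a chemokine receptor for inflamed tissue, had 7.37 CPM in lymph node members and 10.5 CPM in spleen members, with 42.7 and 50.02 CPM in the rest.

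Genes of resting and recirculating T cells were split. In lymph node 12 of 18 were higher in members (median 0.25), and in spleen 6 of 18 were (median -0.03), beside the 54.6% and 54.9% of all genes. Ccr7, the receptor for lymph node entry, stood at 254 CPM in members and 178 CPM in the rest of lymph node, and at 356 and 292 CPM in spleen. Klf2 stood at 1210 against 947 CPM and at 1056 against 1022 CPM. Bach2, a repressor that holds T cells in a resting state, was 1.64-fold and 1.35-fold higher, whereas Dapl1, a gene of naive T cells, was 1.53-fold and 2.24-fold lower. Genes known from thymocytes and recent emigrants likewise went both ways: Sox4 stood at 37.5 against 14.7 CPM and at 54.6 against 26.9 CPM, while Dapl1 belongs to that list as well.

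Around the enzymes that named these cells, the pathways showed little shift. Of other glutathione and redox genes, 13 of 28 in lymph node and 11 of 28 in spleen were higher in members, with medians of -0.01 and -0.04, and past 1.5-fold were Glrx, lower in both, and Txnrd2, higher in lymph node. The difference of Txnrd2 was -0.13 in log2 with the rule at 1200 UMIs. Txnrd2, mitochondrial thioredoxin reductase, had 29.5 and 24.9 CPM in members, with 18.0 and 19.7 CPM in the rest. Nfe2l2, the transcription factor NRF2 that drives antioxidant genes, had 22.8 CPM in members and 27.8 CPM in the rest of lymph node, and 21.7 and 30.6 CPM in spleen. Lysosome genes, the partners of Igf2r, were lower in 13 of 17 in lymph node and 11 of 17 in spleen, none by 1.5-fold, whereas slightly more of all genes were higher than lower. M6pr, the other mannose 6-phosphate receptor, was 1.46-fold lower (1.21 to 1.78) and 1.41-fold lower (1.22 to 1.64). Genes of other CHCHD proteins and of mitochondrial inner membrane proteins, such as Phb, Phb2 and Apool, were higher in 10 of 14 and 11 of 14. None passed 1.5-fold, and slightly more of all genes tested were likewise higher than lower.

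Interferon response genes were lower in members, 26 of 36 in lymph node and 32 of 35 in spleen, with medians of -0.20 and -0.33. Of all genes tested, slightly more were higher than lower in both tissues. Besides Ly6a, Rtp4 stood at 24.8 against 38.8 CPM and 36.9 against 57.9 CPM, although its direction turned in lymph node when 4 rule genes were required and in spleen when the rule was applied at 1200 UMIs. Ribosomal protein genes gave 0.02 and 0.03 and nuclear genes of the respiratory chain 0.05 and 0.09, close to the median gene.

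Myc stood at 45.5 CPM in members and 29.1 CPM in the rest of lymph node (1.57-fold, 1.19 to 2.04), and at 45.9 and 36.3 CPM in spleen (1.27-fold, 1.03 to 1.54). These 3' counts cannot be placed inside or outside the floxed segment from the sources used here, so they do not check the deletion. Known Myc targets were higher in 36 of 43 genes in lymph node and 41 of 44 in spleen, where slightly more of all genes were also higher than lower. Their medians were 0.18 and 0.27. With the rest weighted to the depth of members the medians were 0.014 and 0.047, and with the rule applied at 1200 UMIs they were -0.20 and -0.32. Genes of DNA replication and mitosis gave 0.39 and 0.27, and -0.58 and -0.70 with the rule at 1200 UMIs. The direction of both lists, and of Myc itself (-0.27 in lymph node and -0.63 in spleen in log2), therefore turned when the rule was applied at equal depth.

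Set beside 3 groups of non-member cells fixed by other markers, members were above resting cells and below effector cells in Ikzf2. The resting set (810 lymph node and 1388 spleen cells) held 3 or more genes of its own list, as did the high CD25 set (190 and 320 cells) and the effector set (437 and 560 cells). Against the resting set, the Treg identity list was higher in members for 16 of 17 genes in lymph node and 17 of 17 in spleen, with medians of 0.76 and 1.22. Past 1.5-fold were 12 and 15 of them, beside 6.24% and 5.28% of all genes. Ikzf2 shows the step, at 814 CPM in members, 359 CPM in the resting set, 741 CPM in the high CD25 set and 1067 CPM in the effector set of lymph node. In spleen it stood at 904 CPM in members and at 279, 726 and 1130 CPM in those sets. Against the high CD25 set, genes of the interleukin-2 and STAT5 response were lower in members, 13 of 16 in lymph node and 12 of 16 in spleen. In each tissue 9 of 16 were lower by 1.5-fold, beside 7.65% and 4.03% of all genes. Il2ra, Socs1, Socs2 and Cish of this list also chose the high CD25 set, so their part in the gap is built in. Against the effector set, all 20 tested effector genes in lymph node and all 22 in spleen were lower by 1.5-fold or more, beside 12.2% and 13.2% of all genes, though that set was chosen by genes of this kind.

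Gsta4 was scarce in each of the 3 sets, which the rule left short of it: 27.7, 24.8 and 8.18 CPM in the resting, high CD25 and effector sets of lymph node and 17.3, 47.9 and 7.24 CPM in spleen. Gpr83, outside the rule, stood at 184 CPM in lymph node members, 85.9 CPM in the resting set, 190 CPM in the high CD25 set and 11.5 CPM in the effector set. In spleen it stood at 192 CPM in members and at 95.6, 188 and 15.9 CPM in those sets. The Gpr83 intervals of members and the high CD25 set overlapped in both tissues.

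The count tables hold 3 added features, EYFP, ICRE and CRE, whose sequences no source used here gives. CRE had no UMI in any kept cell, which does not show that it was absent, and EYFP had 2 UMIs, both in spleen members. ICRE stood at 60.3 CPM in members and 30.02 CPM in the rest of lymph node (2.01-fold, 1.57 to 2.54), and at 45.5 and 37.2 CPM in spleen (1.22-fold, 0.999 to 1.49). As a share of ICRE and Foxp3 UMIs together, ICRE made up 43.7% in lymph node members (90 of 206 UMIs, 36.8 to 50.8%) and 20.7% in the lymph node rest (18.8 to 22.8%). In spleen it made up 28.8% in members (126 of 438 UMIs, 24.6 to 33.3%) and 25.7% in the rest (23.8 to 27.7%), and these intervals overlap. With the rule applied at 1200 UMIs the members' share was 60.6% in lymph node and 48.1% in spleen, whereas spleen members with 5 or more rule genes held 12.5% (7 of 56 UMIs, 5.18 to 24.1%). The effector set was lowest, with 3.21% in lymph node and 1.08% in spleen. The resting set held 30.5% and 33.1%, the high CD25 set 25% and 36.4%, and cells with exactly 2 rule genes 26.7% and 33.4%. Lymph node members lay above these groups with intervals apart, whereas spleen members lay below them with overlapping intervals. The rest includes cells with Klrg1 or Gzmb, which the rule keeps out of members. Over the settings run, the lowest log2 ratio of ICRE, members over rest, was 0.833 in lymph node and 0.087 in spleen.

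Seen from the other side, cells with an ICRE UMI were members more often than cells with a Foxp3 UMI and no ICRE UMI. In lymph node 78 of 379 ICRE-positive cells were members (20.6%, 16.6 to 25.01%), against 74 of 982 cells with Foxp3 and no ICRE UMI (7.54%, 5.96 to 9.37%). In spleen the counts were 102 of 549 (18.6%, 15.4 to 22.1%) against 190 of 1195 (15.9%, 13.9 to 18.1%), which overlap. Depth moved with this: the median was 1620 and 1663 UMIs in ICRE-positive cells, against 2859.5 and 2941 UMIs in the others. With the rule applied at 1200 UMIs the shares were 9.72% (6.87 to 13.3%) against 1.87% (1.11 to 2.94%) in lymph node and 8.24% (6.0 to 10.97%) against 3.01% (2.11 to 4.16%) in spleen. With the rule applied at equal depth the intervals were apart in both tissues. The ICRE and Foxp3 groups themselves were called before thinning, at unequal depth. These shares are of all kept cells, and the rule bars those with Klrg1, Gzmb or 3 or more UMIs of B cell genes. Foxp3 was far above ICRE in the effector set, with 271 against 9 UMIs (lymph node) and 368 against 4 (spleen). How much of the gap in member share is set by this bar was not tested.

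**Figure D4:**
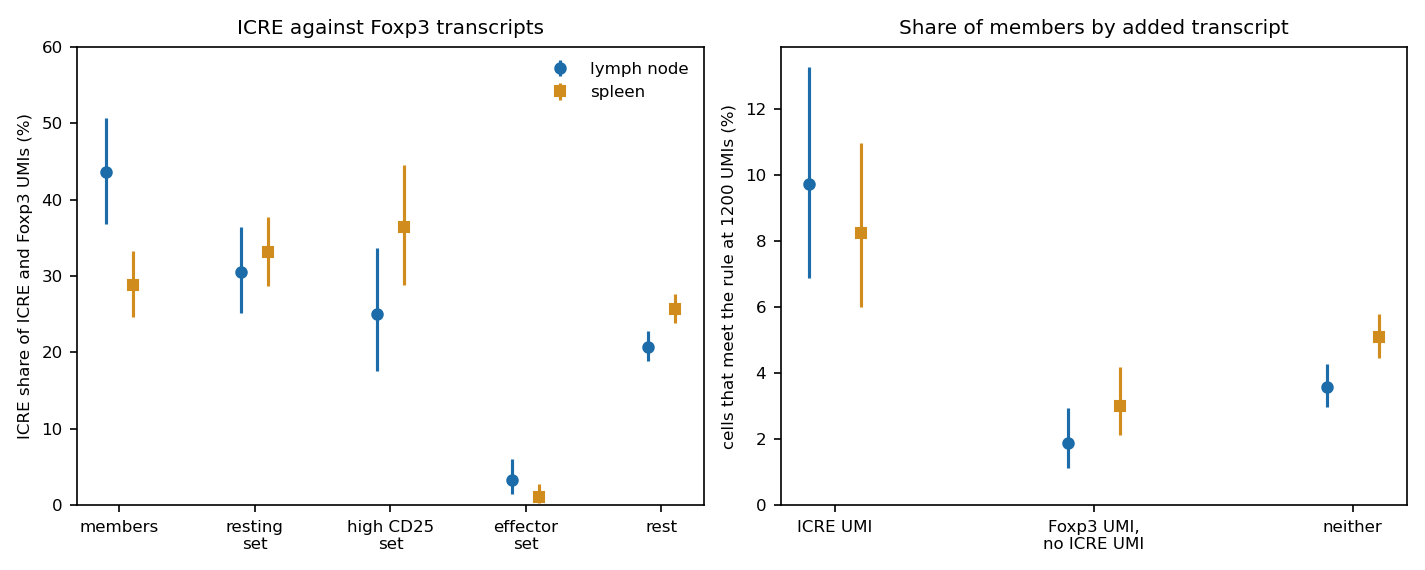
Left, ICRE as a percentage of ICRE and Foxp3 UMIs in members, the 3 comparison sets and the rest; right, percentage of cells that meet the rule at 1200 UMIs, for cells with an ICRE UMI, with a Foxp3 UMI but no ICRE UMI, and with neither, lymph node as circles and spleen as squares, with bars for 95% exact binomial intervals. Lymph node members stand at 43.7% on the left, above the rest at 20.7%, and ICRE-positive cells lead on the right, at 9.72% and 8.24%. The groups on the right were called before thinning.

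Within members, cells with an ICRE UMI before thinning were compared with those without one (75 against 390 in lymph node, 97 against 733 in spleen). Only the counts compared were thinned to 1200 UMIs per cell, so the grouping itself still depends on depth. Over all members, ICRE-positive cells had median depths of 1673.5 UMIs in lymph node and 1853 in spleen, against 2193 and 2432 in ICRE-negative cells. A cell with no ICRE UMI may still hold that transcript, unseen at its depth. In ICRE-positive members 74 of 79 ribosomal protein genes were lower in lymph node and 76 of 80 in spleen, with medians of -0.24 in both, against 0.06 and 0.08 for all genes. Lower by 1.5-fold were 5 and 7 of them, beside 13.1% and 13.7% of all genes, so the shift was below 1.5-fold for most genes and shared by most. The genes that follow lay further down than the list median, and Rplp0 and Rps2 were picked by hand. Rps12 gave ratios of 0.548 (0.438 to 0.678) and 0.671 (0.561 to 0.798), Rplp0 0.685 and 0.618, and Rps2 0.588 and 0.617. In the rest the same contrast gave medians of -0.16 and -0.18, with 73 and 76 of 80 genes lower. Myc had 0 UMIs in ICRE-positive members and 17 in ICRE-negative members of lymph node, and 4 and 36 in spleen. A difference in Myc was not detectable in members at this depth. Myc targets were lower in 14 of 26 genes in lymph node, near an even split, and in 28 of 42 in spleen. Their medians were -0.16 and -0.32, beside 0.06 and 0.08 for all genes. The Myc target medians were -0.70 and -0.49 without thinning, and -0.54 and -0.37 against members with a Foxp3 UMI and no ICRE UMI. In the rest, Myc was lower in ICRE-positive cells, with 3 against 127 UMIs in lymph node (ratio 0.316, 0.0644 to 0.946) and 6 against 180 in spleen (0.385, 0.140 to 0.855). Klf2 was higher in ICRE-positive members, 1.52-fold (1.29 to 1.78) and 1.36-fold (1.17 to 1.58), and Il2ra 2.02-fold (1.31 to 3.05) in lymph node and 1.24-fold (0.833 to 1.78) in spleen. Among the rule genes, Gsta4 gave 1.24 (0.785 to 1.90) and 1.01 (0.667 to 1.49) between ICRE-positive and ICRE-negative members. Chchd10 gave 1.41 (1.06 to 1.85) in lymph node, and Igf2r 1.48 (1.04 to 2.07) and Lactb 2.05 (1.17 to 3.44) in spleen. All other rule gene intervals in members included 1. The rule chose members by these genes, so the contrast covers a selected range. In the rest Gsta4 gave 1.58 (0.817 to 2.82) in lymph node and 2.63 (1.75 to 3.86) in spleen.

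When all kept cells were clustered without the 9 rule genes, members spread over most of the 16 clusters but not evenly. Cluster 4, led by S1pr1, Klf3, Gpr83, Klf2 and Satb1, took 38.2% of lymph node members and 17.3% of spleen members, and 21.9% and 23.3% of its cells were members. By S1pr1, Klf2 and Satb1 it is resting T-like, but Gpr83 is typical of Treg cells. Ikzf2 stood at 648 and 556 CPM in cluster 4, lymph node before spleen, and at 228 and 176 CPM in cluster 6. Cluster 6, led by Ly6c1, Pik3ip1 and Igfbp4, took 5.43% and 5.79% of members, and 2.995% and 3.66% of its cells were members. Cluster 1, led by Ccl1, Penk, Lag3, Pdcd1 and Nkg7, took 17.5% and 20.9% of members, and 17.0% (13.8 to 20.6%) of its lymph node and 32.5% (28.6 to 36.5%) of its spleen cells were members. Cluster 0, led by Art2b, Cxcr3 and Itga4, took 12.3% of lymph node and 6.58% of spleen members, but only 5.18% and 9.83% of its cells were members. Cluster 8, led by Igfbp4, Lta, Lrrc32 and Socs2, took 11.5% and 23.0%, and cluster 2, led by Egr2, Egr3 and Nr4a1, took 3.13% and 10.9%. Cluster 3, effector Treg-like by S100a4, S100a6 and Icos, held 2 and 9 members, and cluster 11, led by class II genes and Ebf1, held 0 and 1. Members therefore formed no single cluster. The rule bars cells with Klrg1 or Gzmb and cells with 3 or more UMIs of B cell genes. The low counts in clusters 3 and 11 are thus in part built in.

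**Figure D5:**
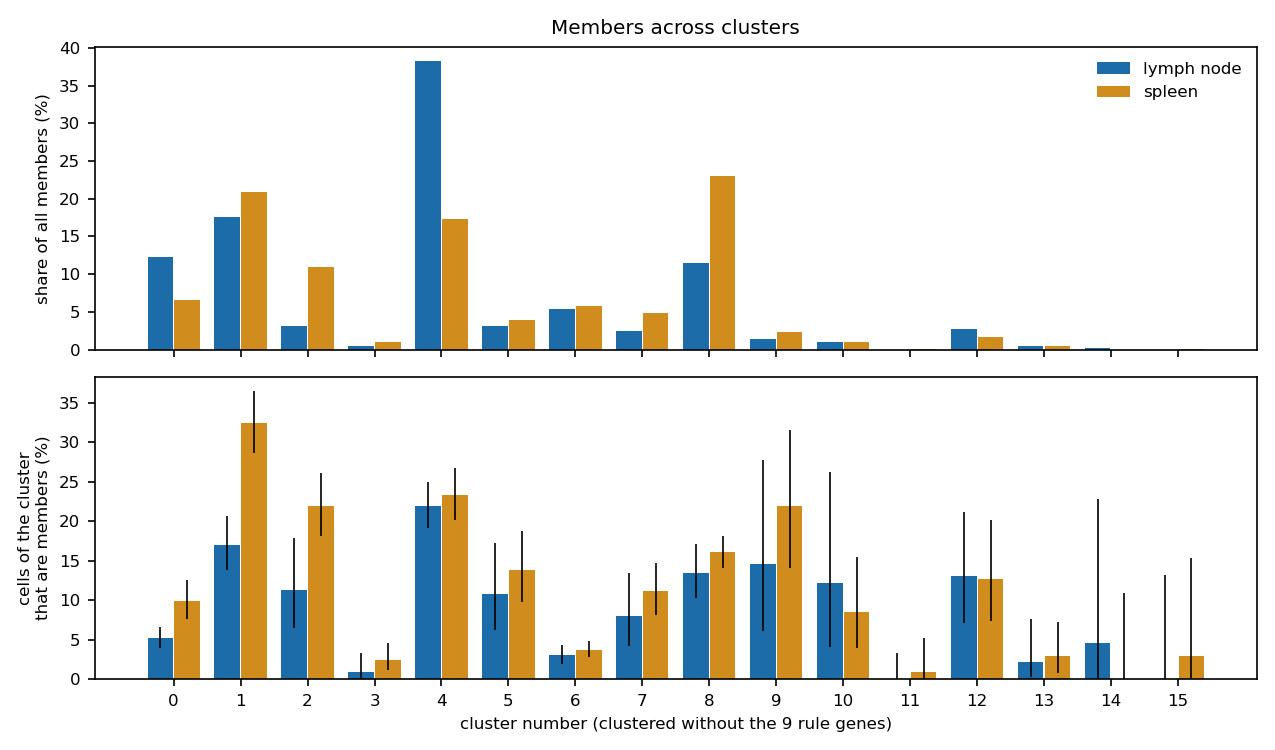
Clusters of all kept cells made without the rule genes, with the share of all members found in each cluster above and the share of each cluster's cells that are members below (bars for 95% exact binomial intervals), lymph node left of spleen in each pair. Clusters 4, 1 and 8 hold most members, and cluster 1 has the highest member share in spleen, at 32.5%.

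Gpr83 was higher in members within both of the clusters that follow. In cluster 4 it stood at 283 CPM in members and 218 CPM in other cells of lymph node, and at 351 and 261 CPM in spleen. In cluster 1 it stood at 144 against 45.1 CPM and at 133 against 79.9 CPM. ICRE shares differed by cluster: 68.3% in members and 59.0% in other cells of lymph node cluster 4, 53.2% and 63.8% in spleen cluster 4, 18.4% and 7.63% in lymph node cluster 1, and 15.9% and 6.40% in spleen cluster 1. The intervals of members and other cells overlap in each of these 4 pairs. In lymph node cluster 0 they were apart, at 26.1% in members (6 of 23 UMIs, 10.2 to 48.4%) and 2.91% in other cells (1.70 to 4.61%), while in spleen cluster 0 they overlapped, at 6.25% and 3.86%. In cluster 8 of lymph node ICRE gave 11 of 22 UMIs in members and 69 of 124 in other cells. Spleen cluster 8 held 33.9% in members and 44.5% in other cells, so members had the lower share in both, with overlapping intervals. Cluster 4 had the higher ICRE shares of these and held more of the lymph node members than of the spleen members, and its part in the ICRE share of all members was not tested.

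Between tissues, 108 of 5078 genes (2.13%) were higher by 1.5-fold or more in lymph node members than in spleen members and 146 (2.88%) were lower, 5% in all, against 0.857% and 0.558% among the rest, which had far more UMIs. Most of the genes named here differed likewise between the tissues in the rest. Gimap7, a GTPase of lymphocytes, stood at 214 CPM in lymph node members and 88.2 CPM in spleen members (2.43-fold, and 2.5-fold in the rest). Art2b, a surface ADP-ribosyltransferase, was 3.62-fold higher in lymph node members and 3.8-fold in the rest, and Dtx1, an E3 ligase of the Notch pathway, 3.57-fold and 3.0-fold. The cell cycle genes Hist1h2ap (367 and 50.9 CPM), Top2a (87.7 and 34.3 CPM), Ube2c (59.6 and 9.03 CPM) and Birc5 (56.3 and 19.9 CPM) were higher in lymph node members too, from few cells each, and without cycling cells Top2a was lower there, by -0.25 on the log2 scale. Hbb-bs, beta globin, had 96 UMIs in lymph node members and none in spleen members, and 1989 and 3 UMIs in the rest. Higher in spleen were Igfbp4 (25.5 CPM in lymph node members, 84.2 CPM in spleen members), Ctsw (40.2 and 116 CPM), Capg (273 and 589 CPM), Apol9b (16.7 and 59.6 CPM) and Socs2 (34.2 and 88.2 CPM), all of them lower in the lymph node rest as well. H2-Ab1, H2-Aa and Cd74 were also higher in spleen members, but 2 spleen members held 236 of 253 H2-Ab1 UMIs, 167 of 173 H2-Aa UMIs and 538 of 1168 Cd74 UMIs. Without those cells H2-Aa was higher in lymph node members, by 1.46 on the log2 scale. That ratio rests on few counts, with 9 H2-Aa UMIs in lymph node members, and lies below the minimum of 30 UMIs used elsewhere.

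Nkg7, a gene of cytotoxic granules, shows a difference of members from the rest that was wide in 1 tissue. It stood at 133 CPM in members and 120 CPM in the rest of lymph node (1.11-fold, 0.950 to 1.29), and at 222 and 93.99 CPM in spleen (2.36-fold, 2.14 to 2.60), where 165 members carried it. In lymph node 1 member held 52 of the 198 UMIs. Lag3, an inhibitory receptor, gave 1.13-fold (0.851 to 1.47) in lymph node and 2.06-fold (1.69 to 2.51) in spleen. The genes with this pattern lead cluster 1, which held 17.5% of lymph node and 20.9% of spleen members.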

How the data were processed

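Sorted cells were profiled with the 10x 3' V2 kit, in 1 lymph node and 1 spleen library. The deposited values are raw UMI counts per gene and barcode, made with Cell Ranger 3.0.1 on mm10 per the submitters' processing notes. The members, gene lists and markers were chosen with earlier results of these data known, and the lists were in part taken from that earlier work. A barcode was kept if it had 500 genes or more and a mitochondrial share no higher than 10%. Scrublet, run in scanpy 1.11.5, called 0 doublets in lymph node and 1 in spleen, so the caller did not work and no cell was removed; an alternative left out the highest 6% of scores. CPM were made from UMI sums over the cells of a group, with exact Poisson, Clopper-Pearson and conditional intervals (scipy 1.17.1), and the calculation was tested on simulated data. To compare cells at equal depth, all were thinned to 1200 UMIs; 252 lymph node cells and 525 spleen cells were too shallow, 14 and 51 of them members. Leiden clusters (resolution 1, igraph 0.11.9, Python 3.11.15) left out the rule genes and receptor, immunoglobulin, mitochondrial, ribosomal and haemoglobin genes, and cluster names are rebuilt here from markers.

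Named genes had at least 50 CPM in members or rest of each library, 30 UMIs and the same side in both libraries. The 12 per side whose interval bound, in the weaker library, lay farthest from 1 were taken, likewise 8 per side between tissues, and up to 4 per list; not all list genes are printed. The rule genes, Gpr83, Foxp3, the added features, Il2ra, Ikzf2, Ctla4, Myc, Ccr7, Klf2 and Mki67 were always included, and Mki67 stood at 17.4 and 14.1 CPM in members against 20.6 and 18.7 CPM in the rest. Nkg7 and Lag3 are list genes whose pattern was singled out after their values were seen. For the ICRE contrast Rplp0 and Rps2 were picked by hand. Gene positions are from GENCODE M21.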

Additional observations from a re-analysis of the deposited data

Results flagged for a closer look

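Hist1h2ap, a replication-dependent histone gene with near-identical copies, was higher in lymph node members than in the lymph node rest (ratio 1.49, 367 against 246 CPM) and lower in spleen members than in the spleen rest (ratio 0.391, 50.9 against 130 CPM). Ube2c, a ubiquitin-conjugating enzyme of mitosis, lay likewise at 1.27 in lymph node and 0.464 in spleen. Both are given here because the 2 tissues lie on opposite sides of no difference, and that difference was not tested. The UMIs came from few cells: in lymph node 30 members held all 548 Hist1h2ap UMIs and 5 of them held 385, and in spleen 34 members held 141. In lymph node 21 members carried the 89 Ube2c UMIs. With the rule applied at 1200 UMIs the lymph node values turned to the side of spleen, -3.23 for Hist1h2ap and -2.53 for Ube2c in log2. With the rest weighted to the depth of members Ube2c was -0.21, and without cycling cells Hist1h2ap was -0.14.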

How the results depend on the processing

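No paired analysis was possible because each tissue has 1 library and the labels give no replicate numbers. Settings that left out cycling cells or cells with class II genes were chosen after seeing the data.

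The share of cells that are members (9.94% in lymph node, 13.5% in spleen) was 2.76% and 4.72% when 4 rule genes were required. It was 7.99% and 11.05% without Gsta4 in the rule, 7.28% and 10.3% without Gsto1, 3.44% and 5.26% without Chchd10 and Lactb, and 3.70% and 4.95% with the rule at 1200 UMIs. In spleen it was 14.7% with a minimum of 700 genes per cell.

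The number of genes past 1.5-fold between members and rest (182 in lymph node, 125 in spleen) was 619 and 378 with 4 rule genes, 539 and 288 without Chchd10 and Lactb, and 934 and 619 with the rule at 1200 UMIs. It was 353 and 341 against cells with 0 rule genes, 2691 and 2700 with no minimum, 47 and 39 with at least 50 CPM and 100 UMIs, and 276 in lymph node without Gsto1. Between lymph node and spleen members the number (254) was 876 with 4 rule genes, 436 without Gsto1, 798 without Chchd10 and Lactb, 614 with the rule at 1200 UMIs, 2892 with no minimum and 51 with the stricter minimum. Settings that leave fewer member cells leave fewer counts per gene.

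The Treg identity median was 0.35 in lymph node without Gsto1 and 0.37 without Chchd10 and Lactb, and 0.55 in spleen with the rule at 1200 UMIs. The effector Treg median stayed below 0 in each setting run. In lymph node it was -1.08 without Gsto1, -1.48 with the rule at 1200 UMIs, -1.15 without the highest doublet scores, -1.09 with the rest weighted to the depth of members, -0.74 without cells with B cell genes, Klrg1 or Gzmb in the rest, -1.21 against cells with 0 rule genes, and -1.06 with each cell weighted equally. In spleen it was -1.10 with 4 rule genes, -0.93 without Gsto1, -1.15 without Chchd10 and Lactb, -1.26 at 1200 UMIs, -1.02 weighted, -0.27 without those cells in the rest and -1.20 against cells with 0 rule genes.

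The Myc target median turned in lymph node, to -0.058 with 4 rule genes, -0.16 without Gsto1, -0.059 without Chchd10 and Lactb and -0.20 with the rule at 1200 UMIs. It was 0.014 weighted, 0.38 against cells with 0 rule genes, 0.038 with cells weighted equally and 0.074 without cycling cells. In spleen it turned to -0.32 at 1200 UMIs, and was 0.45 with 4 rule genes, 0.047 weighted, 0.50 against cells with 0 rule genes and 0.14 with cells weighted equally. The ICRE share in members was 60.6% and 48.1% with the rule at 1200 UMIs. The highest member share of a cluster (21.9% in lymph node, 32.5% in spleen) was 25.3% and 26.4% at resolution 0.5, and 33.9% and 43.0% with the rule genes kept.

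Turns of other lists, and of genes past 1.5-fold, are given in log2. With the rule at 1200 UMIs in lymph node, DNA replication was -0.58, Myc -0.27, Txnrd2 -0.13 and Top2a -2.66, and Top2a was -0.028 without cycling cells. Rtp4 was 0.19 there with 4 rule genes. In spleen at 1200 UMIs, translation factors were -0.095, DNA replication -0.70, lysosome genes 0.069, Mcm5 -0.57 and Rtp4 0.30. DNA replication was -0.24 in spleen with the rest weighted, H2-Eb1 2.49 without cells with B cell genes, Klrg1 or Gzmb in the rest, Hist1h2ap 0.13 against cells with 0 rule genes, and suppressor effectors -0.21 with no minimum. For lymph node over spleen members, H2-Aa was 1.28 with 4 rule genes, 1.87 without Chchd10 and Lactb, 1.87 at 1200 UMIs and 1.46 without class II cells. Under the main rule lymph node members held only 9 H2-Aa UMIs. DNA replication was -0.063 without Chchd10 and Lactb, -0.040 with cells weighted equally and -0.29 without cycling cells, Myc targets were 0.025 at 1200 UMIs, and Top2a was -0.25 without cycling cells. Genes within 1.5-fold turned too, and not all are listed. With the rule at 1200 UMIs, Mcm5 was -0.79, Hist1h2ap -3.23 and Ube2c -2.53 in lymph node and Myc -0.63 in spleen, and with cells with B cell genes, Klrg1 or Gzmb out of the rest Cd74 was 1.27 and Lgals1 0.084 in spleen. There 2 spleen members held 538 of the 1168 Cd74 UMIs. Of the 20 medians of the ICRE contrast within members under its 2 alternatives, 14 moved by 0.1 or more, and that of Treg identity in spleen was -0.032 without thinning, against 0.026, and all others kept their sign. The cause was not tested. Of 2094 values of single genes, 1706 moved by less than the counting error and 14 values past 1.5-fold turned. The depth of a cell limits how often 3 rule genes can be seen, so the cells counted as rest include some that would be members at greater depth.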
